A study of Mus musculus with 6 samples.

Results

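The Six-family and Eya-family genes encode proteins that work together in muscle. Six-family proteins are homeodomain transcription factors that bind DNA at a motif called MEF3, and Eya proteins are coactivators that do not bind DNA themselves but dock on Six-family proteins and carry a haloacid dehalogenase-type phosphatase domain. In mouse muscle, Six-family proteins with Eya cofactors drive myogenic genes in the embryo and are known for turning on the fast glycolytic program of adult fibers.

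RNA-seq was performed on tibialis anterior (TA) muscles, a fast muscle of the lower leg, from 3 NS-DADm mice and 3 wild-type (WT) mice, all 21 weeks old and labelled C57BL/6, with 1 library per mouse. NS-DADm mice carry knock-in missense mutations in the deacetylase activation domains of nuclear receptor corepressors, the proteins that switch on the enzymatic activity of histone deacetylase 3 (HDAC3). The knock-in is present in the whole body, so a change in the muscle may also come from other tissues, and WT mice carry none of these mutations. The data answer how these genes differ between genotypes in whole muscle, in which fewer cells of a type and less RNA per cell cannot be told apart.

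The deposited table lists 709 genes, which are those the authors called changed between these same libraries. Of the 10 mouse genes of the Six-family and the Eya-family, chosen as every gene name that starts with either family symbol, 3 are listed: Six2, Eya1 and Eya4. For comparison, 3.22% of all annotated protein-coding and other listed genes are in the table. No value is at hand for the other genes of these families, and whether they changed is not known from this table. Because listed genes were selected for a difference between these libraries, the p-values below describe that difference and are not independent evidence of it. The tissue label fits the listed markers of fast muscle: Actn3, the fast-fiber alpha-actinin, had 170276 to 201655 normalized counts in NS-DADm libraries and 119284 to 159177 in WT libraries, among the highest in the table. The genotype labels were not checked from the expression of the mutated genes.

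Six2 and Eya1 were lower in NS-DADm muscle, and Eya4 was higher. The normalized count of Six2 was 3.12-fold lower and that of Eya1 1.77-fold lower than in WT, while that of Eya4 was 1.56 times the WT mean. A normalized count is the number of reads on a gene divided by a size factor for the library. Each of the 3 genes passed limma's test at an adjusted p under 0.05, as did all listed genes: 50.9% of the table was called higher and 49.1% was called lower, so the calls by themselves do not set these genes apart. The groups did not overlap for any of the 3, which was true of 97.9% of listed genes.

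**Figure D1:**
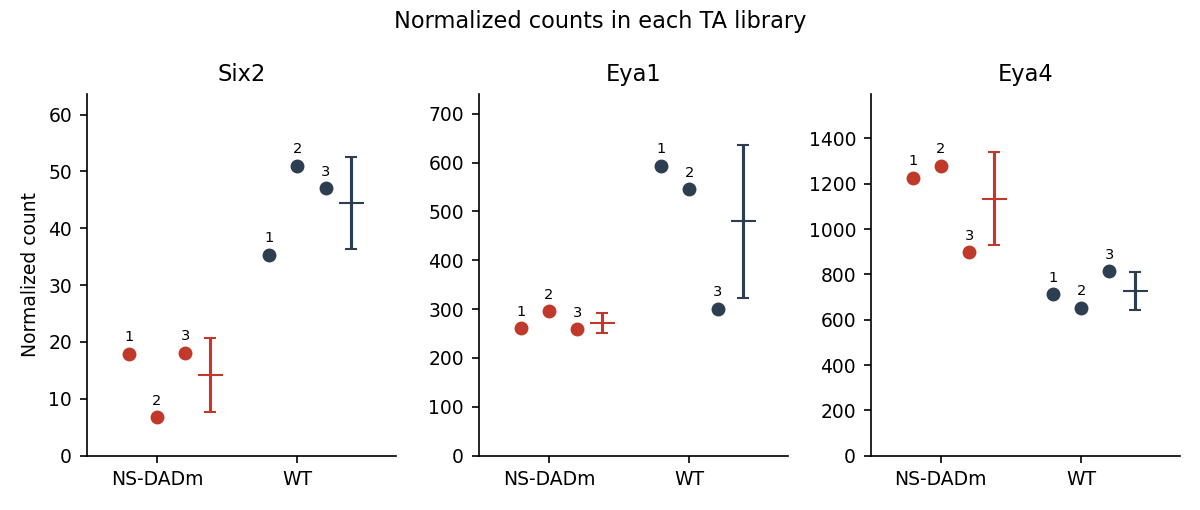
Normalized count (vertical axis, starting at 0) of Six2, Eya1 and Eya4 in each NS-DADm and WT TA library. Points are single mice with their replicate number, and the bar beside them is the mean ± SD (n = 3). All 3 NS-DADm mice lie below WT for Six2 and above WT for Eya4, and for Eya1 the WT 3 value of 300.6 lies just above the highest NS-DADm value of 295.8.

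To show what the Eya genes share, a stretch of 69 coding bases was read from GENCODE M21 transcripts (GRCm38) around the codons of the phosphatase signature aspartate-leucine-aspartate-glutamate-threonine, in which the first aspartate is the nucleophile of the enzyme. Capitals mark these codons. The Eya1 stretch joins exons 10 and 11 of ENSMUST00000027066.12 (chr1:14229520-14231424, minus strand), and the Eya4 stretch joins exons 12 and 13 of ENSMUST00000219315.1 (chr10:23138218-23139972, minus strand).
Eya1: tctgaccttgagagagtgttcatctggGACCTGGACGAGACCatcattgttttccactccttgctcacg
Eya4: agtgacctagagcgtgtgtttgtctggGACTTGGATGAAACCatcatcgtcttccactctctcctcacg
The stretches are identical at 54 of 69 bases, and from its first base to the end of the coding sequence both genes agree at 626 of 825 positions (75.9%). The longest identical run in the coding sequences is 18 bases. No 50-base stretch of the annotated Eya1 transcripts occurs in another gene, and 5 of 9435 Eya4 stretches of that length do (0.053%), so little of either transcript could draw reads from a paralog.

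Six2 encodes the only listed DNA-binding member of the pair of families. It is best known for holding nephron progenitors of the kidney in an undifferentiated state, and it is also transcribed in skeletal muscle. The gene (ENSMUSG00000024134.11) lies on chromosome 17 from 85684277 to 85688274 on the minus strand (GRCm38). Its normalized count was 17.95, 6.72 and 18.10 in NS-DADm mice 1 to 3, against 35.31, 50.98 and 47.06 in WT mice 1 to 3. All NS-DADm values were below all WT values, and NS-DADm 2 was the lowest of the 6 libraries. The means were 14.3 ± 6.53 in NS-DADm and 44.4 ± 8.15 in WT (SD, n = 3 each). The log2 difference was -1.67 (SE 0.39, 95% interval -2.53 to -0.82, limma adjusted p = 0.00222). The nearest values of the groups still differed 1.95-fold.

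The Six2 difference rests on few reads. Reads were inferred, since the deposited values are normalized: all values of a library were whole multiples of 1 step, taken as 1 read, which gives 17, 7 and 15 reads in NS-DADm mice and 39, 56 and 49 in WT mice. The 7 reads of NS-DADm 2 have an exact 95% Poisson interval of 2.81 to 14.4, which covers counting error only. With so few reads, counting alone gives a coefficient of variation of 29.3% in NS-DADm and 14.6% in WT, where the libraries varied by 45.8% and by 18.3%. Only 50 of the 709 listed genes had a mean as low or lower, Six2 included, and 30 of the 348 lower genes had a larger log2 difference. Without NS-DADm 2, Six2 stood at 0.406 of the WT mean instead of 0.321. Of 2044 stretches of 50 bases in its transcripts, 21 (1.03%) also occur in other genes, 464 in number with the family member Six3 among them, and are simple repeats.

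Eya1 is known in the mouse as a cofactor that accumulates in the nuclei of fast fibers. The gene (ENSMUSG00000025932.14) lies on chromosome 1 from 14168954 to 14310235 on the minus strand. Normalized counts of Eya1 were 260.9, 295.8 and 258.3 in NS-DADm mice 1 to 3, against 593.1, 545.3 and 300.6 in WT mice 1 to 3. The NS-DADm libraries lay close together, and WT 3 was near them and far from the other WT libraries. The means were 272 ± 21.0 in NS-DADm and 480 ± 157 in WT (SD, n = 3 each), with a log2 difference of -0.76 (SE 0.22, 95% interval -1.25 to -0.27, limma adjusted p = 0.00603).

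The groups nearly met for Eya1. NS-DADm 2 and WT 3 differed 1.02-fold, and their exact 95% Poisson intervals of 264 to 331 and 268 to 336 normalized counts overlap. The coefficient of variation was 7.72% in NS-DADm, close to the 6.30% that counting gives, against 32.7% in WT, where counting gives 4.55%. Eya1 in NS-DADm stood at 0.566 of the WT mean, at 0.477 without WT 3 and at 0.642 without WT 1, where the call was weakest (log2 -0.58, limma adjusted p = 0.0299).

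Eya4, whose human gene is linked to hearing loss and dilated cardiomyopathy, was the most abundant of the 3. The gene (ENSMUSG00000010461.15) lies on chromosome 10 from 23102963 to 23350786 on the minus strand. Its normalized count reached 1226, 1278 and 898 in NS-DADm mice 1 to 3, against 713, 652 and 814 in WT mice 1 to 3. NS-DADm 3 was the lowest of its group and WT 3 the highest of its own, and they differed 1.10-fold. The means were 1134 ± 206 in NS-DADm and 726 ± 82.2 in WT (SD, n = 3 each), with a log2 difference of 0.63 (SE 0.15, 95% interval 0.31 to 0.95, limma adjusted p = 0.00220). Counting error was small here, at 3.11% in NS-DADm and 3.58% in WT, against a spread between mice of 18.2% and of 11.3%.

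All 3 limma calls depend on the set of genes over which p was adjusted. The authors had called these genes with DESeq2 under a false discovery rate threshold, which is a different test. If every protein-coding gene of the annotation had been tested and the unlisted ones had a p of 1, the limma adjusted p would be 0.0689 for Six2, 0.187 for Eya1 and 0.0682 for Eya4. A p of 1 for all unlisted genes is the strictest case, in which only 43.2% of listed genes kept a limma call. An exact two-sided permutation test gave p = 0.1 for each gene, which is the smallest that 3 mice against 3 allow.

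In size, the Eya changes lay near the middle of the listed genes of their direction, taken over all abundances. Six2 had a larger change than most, but so did other genes of low abundance: of 22 lower genes with a lower mean than Six2, 12 had a larger log2 difference. Among the 361 higher genes the median stood at 1.62 times the WT level, and 207 of them had a larger log2 difference than Eya4. Most of these were less abundant: 184 were among the 245 higher genes with a lower mean than Eya4. Among the 348 lower genes the median was a 1.66-fold decrease, and 162 of them had a larger log2 difference than Eya1. Of these, 142 were among the 203 lower genes with a lower mean than Eya1. Few genes as abundant as Eya4 or Eya1 thus had larger changes in the same direction. Eya4 was in the upper part of the table by abundance, with 185 listed genes above its mean, and Eya1 was near the middle, with 339 above.

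**Figure D2:**
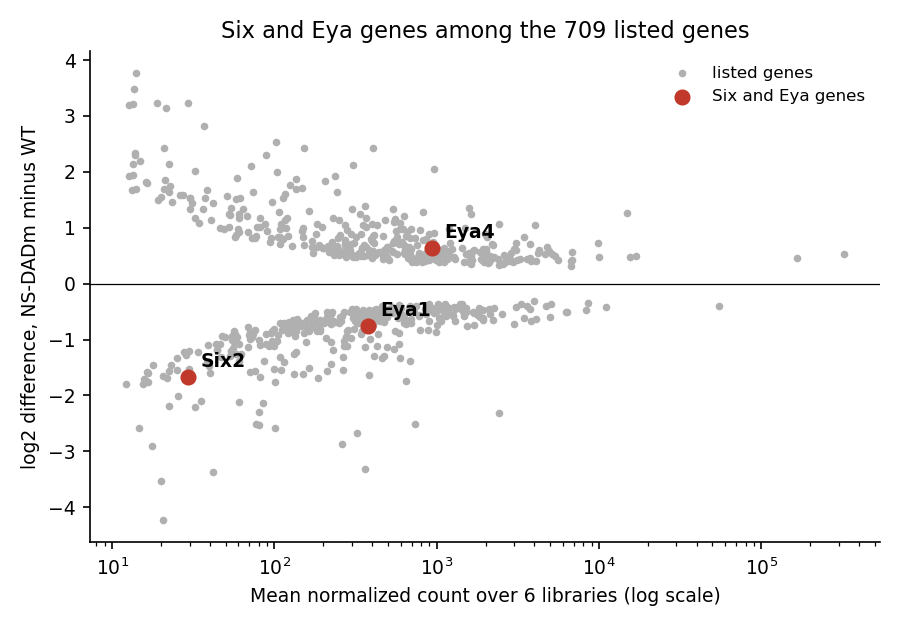
Log2 difference of NS-DADm minus WT (vertical axis, limma) against the mean normalized count over the 6 libraries (horizontal axis, log scale) for the 709 listed genes, with Six2, Eya1 and Eya4 in red. Six2 sits at the low end of abundance at -1.67, and Eya1 and Eya4 lie within the band of listed genes at -0.76 and 0.63.

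Levels can be compared between genes only per length, so normalized counts were divided by the length of the merged exons. In NS-DADm muscle the order was Eya4 at 120 ± 21.9, Eya1 at 34.8 ± 2.69 and Six2 at 6.73 ± 3.08 normalized counts per kb (SD, n = 3), and no neighbors in this order overlapped. In WT muscle Eya4 was at 77.1 ± 8.72, Eya1 at 61.4 ± 20.1 and Six2 at 21.0 ± 3.85 (SD, n = 3). There the values of Eya4 and Eya1 overlapped, so their order in WT is not resolved, while Six2 was below both in every library.

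The balance of the cofactors differed between genotypes. Per kb of exon, the ratio of Eya4 to Eya1 was 3.90, 3.58 and 2.88 in NS-DADm mice 1 to 3, against 0.996, 0.991 and 2.25 in WT mice 1 to 3. Eya4 therefore exceeded Eya1 in every NS-DADm library, whereas WT 1 and WT 2 had nearly equal levels and WT 3 was again between. The mean ratio was 3.45 ± 0.52 in NS-DADm and 1.41 ± 0.72 in WT (SD, n = 3 each), with an exact two-sided permutation p of 0.1, the smallest possible. The sum of both genes per kb was 164, 174 and 128 in NS-DADm mice and 152, 139 and 125 in WT mice. These sums overlapped and averaged 155 ± 23.7 in NS-DADm and 139 ± 13.3 in WT (SD, n = 3 each). On normalized counts without the division by length, the exact permutation p for the sum was 0.3, which does not show that the sums are equal. The ratio joins genes that are listed for moving in opposite directions, so its difference follows from theirs.

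**Figure D3:**
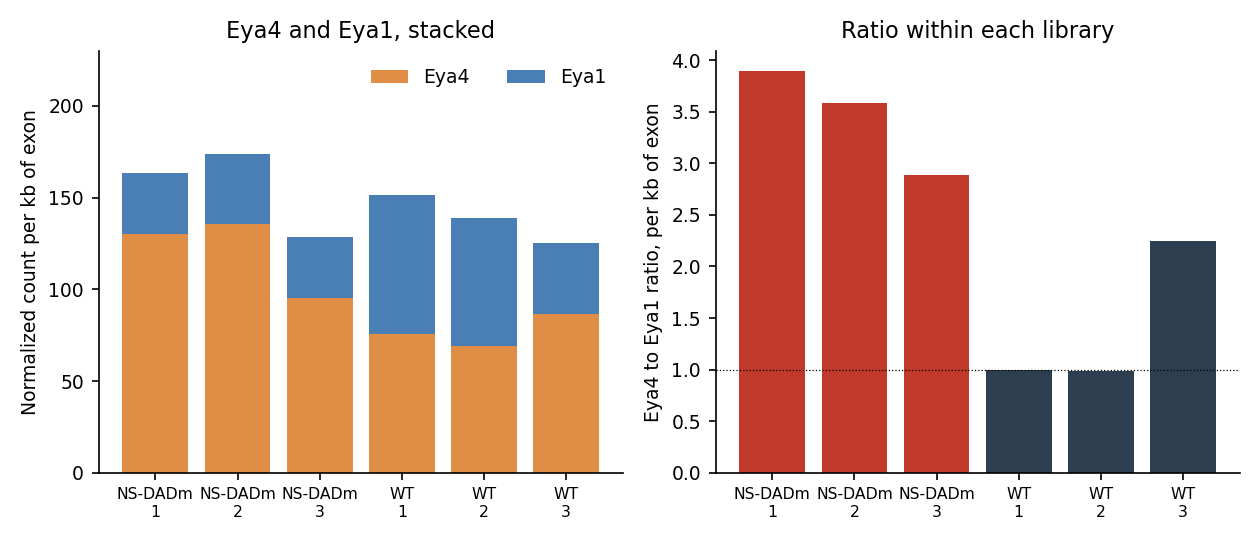
Left, normalized counts per kb of exon of Eya4 and Eya1, stacked, in each NS-DADm and WT library. Right, the ratio of Eya4 to Eya1 per kb in the same libraries, with a dotted line at equal levels: it is 2.88 to 3.90 in NS-DADm and 0.991 to 2.25 in WT.

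Gene lists around the Six-family and Eya proteins can be read only against the 3.22% of all genes that are listed. None of 9 partner genes, among them the Dach corepressors, Pax3 and Pax7, Groucho-family Tle genes and Sobp, was listed. The same held for all 16 myogenic transcription factors on the list, including Myod1, Myog, Myf6 and the Mef2 genes, and for Hdac3. For lists of this length a share of 3.22% also gives few or no genes, so these counts say nothing about the partners. A gene that is not listed was either not tested or not called by the authors, and it has no value here.

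Of 12 transcription regulators of fiber type, 1 was listed, Vgll2. Vgll2 is a muscle-enriched cofactor of TEAD transcription factors. Its normalized count was 1210, 1250 and 1893 in NS-DADm mice 1 to 3, against 2387, 2234 and 1749 in WT mice 1 to 3. Vgll2 fell in NS-DADm (log2 difference -0.57, SE 0.17, limma adjusted p = 0.00808), but NS-DADm 3 was above WT 3, so the groups overlapped. Nuclear receptors tied to fiber type are not on that list; Esrrg, Thrb and Ppard, named after their values were seen, had log2 differences of 0.86, 0.52 and 0.50.

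Of 19 fast-fiber genes, on which Six-family and Eya proteins are known to act in the mouse, 3 were listed, 1 lower and 1 higher besides a row of uncertain identity. Actn3, which encodes a Z-disc protein, had 1.36 times the WT level (log2 0.45, SE 0.15, limma adjusted p = 0.0137), and Myl1, a fast myosin light chain, had 0.760 of it (log2 -0.39, SE 0.12, limma adjusted p = 0.00787). Both of these differences were 0 after quantile normalization, which gives the few most abundant genes the same rank value in each library. The third, a row named Aldoa, is not the main gene of the glycolytic enzyme aldolase A but a second gene model of that name (ENSMUSG00000114515.1, chromosome 7, 126800790 to 126809108, minus strand), so it says little on the enzyme. This row fell to 241.8, 287.2 and 183.5 normalized counts in NS-DADm mice, against 383.0, 532.5 and 408.1 in WT mice (limma adjusted p = 0.00133).

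Of 14 slow-fiber genes, 1 was listed, Sln, the gene of sarcolipin, which inhibits the sarcoplasmic reticulum calcium pump. Sln stood at 21.1, 61.5 and 26.6 normalized counts in NS-DADm mice 1 to 3, against 15.4, 1.82 and 8.64 in WT mice 1 to 3. It was higher in each NS-DADm mouse than in any WT mouse (log2 2.14, SE 0.63, limma adjusted p = 0.00630), at low counts in all 6 libraries. Without WT 2 the Sln log2 difference was 1.42.

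Of 15 genes of developing or denervated muscle 3 were listed, 2 of them higher and 1 lower. Chrna1, the alpha subunit of the muscle acetylcholine receptor, reached 209, 218 and 191 normalized counts in NS-DADm mice, against 125, 143 and 157 in WT mice (log2 0.54, SE 0.15, limma adjusted p = 0.00455). Outside that list, another subunit gene of this receptor, Chrnb1, was lower (log2 -0.64, limma adjusted p = 0.00190). The gene of the receptor's anchoring protein, Rapsn, was lower too (log2 -0.59, limma adjusted p = 0.00177). Runx1, a gene of denervated muscle outside that list, was higher like Chrna1 (log2 1.15, limma adjusted p = 0.00394). Chrnb1, Rapsn and Runx1 were named after their values were seen. H19, an imprinted noncoding RNA, was at 1.42 times the WT level (log2 0.50, SE 0.11, limma adjusted p = 0.00197), a direction that turned to -0.069 after quantile normalization. Actc1, the cardiac alpha-actin that is replaced by the skeletal form as muscle matures, was the most changed of these genes at 1140, 839 and 521 normalized counts in NS-DADm mice, against 3114, 4030 and 4839 in WT mice (log2 -2.31, SE 0.24, limma adjusted p = 4.11e-05). Of the 46 markers of tendon cells and fibroblasts, satellite cells, nerve and Schwann cells, and endothelial and blood cells, 0 were listed. Genes of other cells outside these marker lists were in the table in both directions. Higher in NS-DADm were the macrophage genes Mrc1 and Retnla, with log2 differences of 1.02 and 1.60. So were the antibody genes Igkc and Igha (3.14 and 3.77) and the matrix gene Ogn (0.48). Lower were Stab2, a gene of endothelial cells (-0.76), and the proliferation genes Mki67 and Top2a (-1.65 and -1.76). Mki67 and Top2a had few reads, with mean normalized counts of 20.7 and 16.7, below that of Six2. Other genes of cell division went both ways: Asf1b, Blm and Cenpq were higher (1.69, 1.09 and 0.81), and Ncapd2 was lower (-0.58). All these genes of other cells and of cell division were named after their values were seen. Their part in the Six2, Eya1 and Eya4 differences was not tested. With p adjusted over all annotated coding genes as above, the calls of Actc1 and the Aldoa row remained (limma adjusted p = 0.00128 and 0.0414), and those of Vgll2, Actn3, Myl1, Sln, Chrna1 and H19 did not (0.0612 to 0.424).

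**Figure D4:**
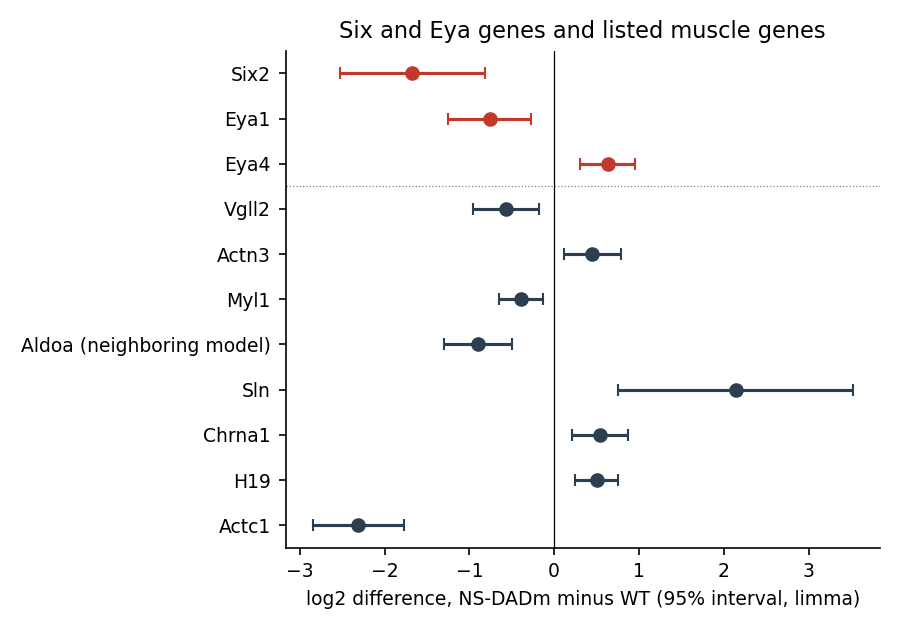
Log2 difference of NS-DADm minus WT (horizontal axis) with its 95% limma interval for Six2, Eya1 and Eya4 (red) and for the 8 listed genes of the muscle lists (dark). Actc1 at -2.31 and Six2 at -1.67 lie farthest below 0 and Sln at 2.14 farthest above; Actn3 and Myl1 were 0 and H19 was -0.069 after quantile normalization.

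The listed genes most like each member were found by the root mean square difference over the 6 libraries between log2(normalized count + 1) profiles, each set to 0 at the gene's WT mean. For Eya4 these were Cat (0.0685), the peroxisomal catalase; Lpl (0.0786), the lipase that releases fatty acids from circulating lipoproteins; and Ppm1k (0.0835), the phosphatase that activates branched-chain ketoacid dehydrogenase. All 3 were lowest of the NS-DADm group in NS-DADm 3 and highest of the WT group in WT 3, as Eya4 was, and stood at 1.54, 1.68 and 1.53 times the WT level.

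Eya1 had less close matches, the noncoding RNA 2310001H17Rik (0.176), Ankrd27 (0.178), which encodes an endosomal trafficking protein, and Ttc28 (0.188). Like Eya1, these 3 had their lowest WT value in WT 3, but Eya1 lay lower there than any of them. For Six2 the nearest were Map3k7cl (0.264), the tetraspanin gene Tspan12 (0.288) and Bex1 (0.320), which all shared its minimum in NS-DADm 2 and stood at 0.338, 0.345 and 0.336 of the WT level. The median over all other listed genes was 0.789 for Eya4, 0.895 for Eya1 and 1.54 for Six2. The measure is a description over 6 libraries, and genes with few reads, such as Six2, carry more counting error in it.

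**Figure D5:**
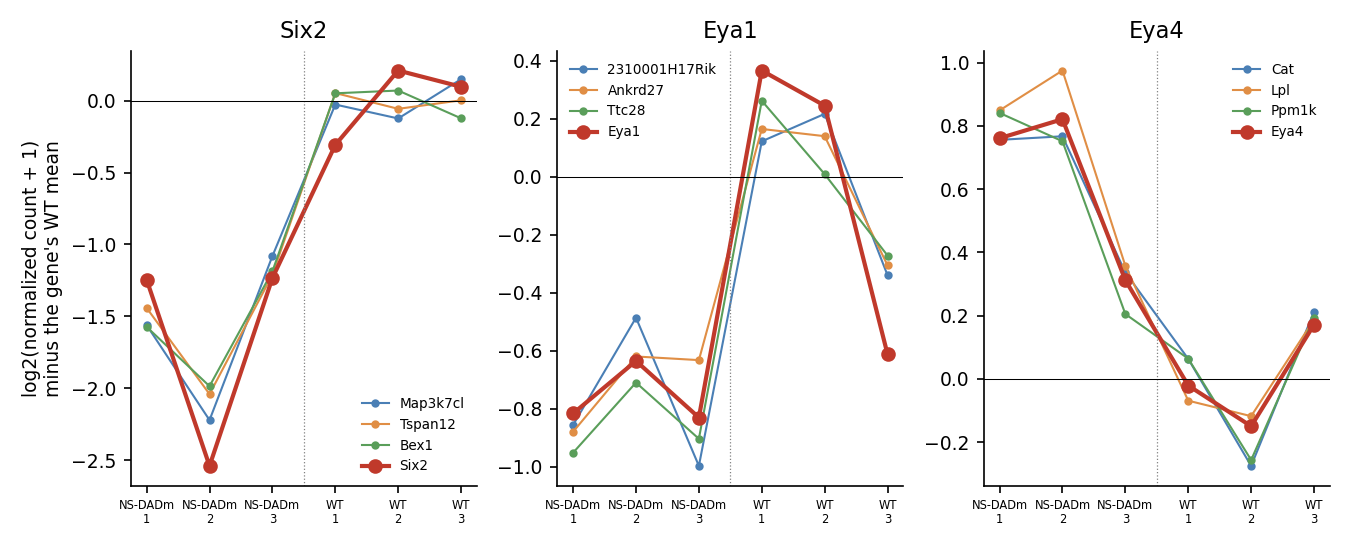
log2(normalized count + 1) minus the gene's WT mean (vertical axis) in each NS-DADm and WT library for Six2, Eya1 and Eya4 (red) and the 3 most alike listed genes of each. Lines only join the points of a gene. The Eya4 group runs closest together (root mean square differences 0.0685 to 0.0835), and Eya1 lies below its 3 matches in WT 3.

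The surroundings of the members can be read only against the 3.22% of annotated protein-coding and other listed genes in the table. At that share a window of 31 to 57 genes holds few or none, so these counts do not show whether listed genes cluster. Within 1000000 bases of each gene, 0 of 57 annotated genes were listed beside Eya4, 0 of 31 beside Eya1 and 1 of 33 beside Six2. That one was Ppm1b, 0.660 Mb away, which was at 1.31 times the WT level in NS-DADm, opposite in direction to Six2. Annotated small or unclassified genes overlap Eya4 (Gm24655) and Eya1 (Gm22616 and Gm37444), none of them listed, and no source used here says whether reads were counted by strand.

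MEF3, the DNA motif bound by Six-family proteins, was searched as the core TCAGGTT and the longer form TCAGGTTTC on both strands of RefSeq promoters (GRCm38.p6), windows of 300 bases reaching from 250 bases before to 50 after a start site. The core was in 4.07% of 32851 promoters and in 3.4% of 705 promoters of listed genes, which matched 526 of the listed symbols. The longer form, which contains the core, was in 0.429% of all promoters and in 0.567% of those of listed genes. Neither was in the 3 promoters of Six2 and Eya4, and an Eya1 promoter was not analysed here. The 4 listed genes with the longer form are shown because they are the only ones, together with the promoter of Myog, the myogenin gene, in which this motif is a known Six-family site in the mouse. They were named after the search, and capitals mark the motif.
Luzp1: gccttccaagTCAGGTTTCctccggagcc
Mrln: acattctggcTCAGGTTTCtgcctaacac
Rhobtb3: cgctcccggcTCAGGTTTCagccttccga
Arhgef28: cgcagcagctTCAGGTTTCctcctggagc
Myog: agaggggggcTCAGGTTTCtgtggcgttg
These windows lie at chr4:136469568-136469596 (plus strand) for Luzp1, chr10:70204609-70204637 (plus) for Mrln, chr13:75943929-75943957 (minus) for Rhobtb3, chr13:98206377-98206405 (minus) for Arhgef28 and chr1:134289910-134289938 (plus) for Myog. Mrln, which encodes a muscle micropeptide that inhibits the calcium pump, and Rhobtb3 were higher in NS-DADm, with log2 differences of 0.76 and 0.84. Luzp1 and Arhgef28 were lower, at -0.80 and -1.005. Genes carrying the longer form thus lay on both sides, 2 higher and 2 lower, and a match of letters is not evidence of binding in these muscles.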

How the data were processed

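RNA was extracted from TA muscles with TRIzol and RNeasy columns, and 1 library per mouse was sequenced from 3 NS-DADm and 3 WT mice. The study's methods name STAR and the submitters' processing notes TopHat2 2.1.0, HTSeq and DESeq2 1.8.2, all on GRCm38, a conflict over the aligner that the table does not settle. The authors deposited a signal that is never negative, normalized counts (reads over a size factor), for the 709 genes they called. Columns with the authors' group means, fold changes, p-values and adjusted p-values were not used. One read was worth 0.905 to 1.21 normalized counts, and 100% of values were whole reads within 0.01. Reads over listed genes were 1047804 to 1411470 per library, which is only a fraction of its depth.

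Log2(normalized count + 1) was compared with limma 3.58.1 in R 4.3.3 (trend, two-sided, Benjamini-Hochberg over the 709 genes, threshold 0.05), checked on simulated data. No filter on low values was applied, and the lowest mean was 12.2. Folds are ratios of group means. Permutation tests and intervals used scipy 1.17.1, and tables pandas 2.3.3 in Python 3.11.15. Of the 709 identifiers, 706 matched GENCODE M21. Named genes are the members, every listed gene of the muscle lists, and the 3 listed genes most like each member. The members and lists were chosen with earlier results of these data known. Alternatives were other pseudocounts, scalings, a minimum mean, limma without trend, a replicate block, a wider adjustment, and leaving out each library.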

Additional observations from a re-analysis of the deposited data

How the results depend on the processing

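Six2, Eya1 and Eya4 kept their direction in every alternative that gave a value. The calls were lost in the adjustment over all 22016 annotated coding genes and other listed genes, with unlisted genes taken as unchanged, because more genes were then counted as tested: log2 differences of -1.673 (Six2), -0.76 (Eya1) and 0.6312 (Eya4) had limma adjusted p of 0.0689, 0.187 and 0.0682, and 159 genes were called higher and 147 lower. A minimum mean of 50 removed Six2, so it has no value there. Leaving out each library gave log2 differences of -1.893 to -1.24 for Six2, -1.066 to -0.5768 for Eya1 and 0.5363 to 0.7909 for Eya4, with limma adjusted p up to 0.0095, 0.0299 and 0.0104, and 358 to 361 genes called higher and 345 to 348 lower. The other alternatives gave -1.768 to -1.413 for Six2, -0.8232 to -0.752 for Eya1 and 0.537 to 0.6316 for Eya4. Of 237 alternative values of 17 other named genes, 223 kept direction and call, 13 lost the call and 1 reversed, H19 at -0.06901 after quantile normalization. That scaling moved the median log2 difference of listed genes to 0.117, against 0.38 without it, although the median gene moved by only -0.017.

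The replicate numbers are shared by the genotypes, and the labels do not say whether mice of the same number were paired. Over the listed genes, same-numbered libraries had deviations from their group means correlated at -0.149, 0.148 and 0.0502, which does not settle it. With the number as a replicate block, the limma adjusted p was 0.00681 for Six2, 0.00846 for Eya1 and 0.00954 for Eya4, with 361 genes called higher and 348 lower. The planned edgeR and DESeq2 fits were not run: reads could only be inferred from normalized values, with too few low values per library to test them as counts.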
